A study of Mus musculus with 5 samples.

Results

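Bins of the mouse genome without a promoter bait that several promoter baits contacted were examined in capture Hi-C data from the fetal gonad. Capture Hi-C joins fragments that lie close together in the nucleus and enriches the products that hold a chosen fragment, the bait, which here is a bin of about 5 kb named after the transcripts that start in it. The deposited table pairs each bait with an other end and gives 1 CHiCAGO score per cell type. CHiCAGO is a caller whose score rises as the number of read pairs exceeds a background that falls with distance. A bin was a member if it carried no bait name and was listed with 4 or more different baits of the same chromosome, over baits on chromosomes 1 to 9. This gave 519 bins of 16369 without a bait name (3.17%), with 2395 of the 22878 contacts of such bins (10.5%). The bins were thus chosen by the scores themselves, through the listing at a score of 5 in at least 1 cell type, so their number of baits and their scores are a description and were not tested.

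The libraries came from mouse gonads at E13.5 (days of embryonic development), sorted by fluorescence, 100000 cells per library. Sertoli cells, the supporting cells of the testis, were taken from Sox9IRES-GFP embryos and gave 3 libraries. Pre-granulosa cells, their counterpart in the ovary, were taken from Enh8-mCherry embryos and gave 2 libraries. Both groups share the stage, and the labels name no treatment. All libraries of a cell type stand behind a single score column, so no value here has a replicate error, no p-value is given, and each difference compares a pool of 3 libraries with a pool of 2. Depth is unknown, and contact scores hold no expression of marker genes against which the sorted cell types could be checked.

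In a mammalian nucleus, promoters touch distal sequence and each other within folded stretches of a chromosome whose borders often hold the zinc finger protein CTCF. A stretch touched by several promoters can hold enhancers, insulators or the body of an active gene, and contact alone does not tell these apart. In supporting cells of the gonad, distal elements near genes such as Sox9 are known to set the choice between the testis and the ovary programme.

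The sequences at the bait ends of the bins described most closely here were taken from RefSeq (assembly GRCm38.p6), 250 bases before to 50 after each gene start, on the strand of the gene. The first 4 are shown because each holds the core of the CTCF motif, CCA, any 2 bases, AG, any 2 bases and GGC, in capitals on either strand, and belongs to a promoter of a bin with 7 to 11 baits. Tmub1 lies at chr5:24447797-24448096 (minus strand), Aldoa at chr7:126800398-126800697 (minus), Naa80 at chr9:107580419-107580718 (plus) and Cdhr4 at chr9:107992207-107992506 (plus).
Tmub1: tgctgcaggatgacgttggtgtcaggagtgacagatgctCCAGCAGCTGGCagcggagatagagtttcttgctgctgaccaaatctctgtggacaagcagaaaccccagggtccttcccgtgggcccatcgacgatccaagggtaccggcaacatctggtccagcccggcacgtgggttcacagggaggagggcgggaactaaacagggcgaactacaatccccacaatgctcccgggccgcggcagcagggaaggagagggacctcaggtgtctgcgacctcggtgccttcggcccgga
Aldoa: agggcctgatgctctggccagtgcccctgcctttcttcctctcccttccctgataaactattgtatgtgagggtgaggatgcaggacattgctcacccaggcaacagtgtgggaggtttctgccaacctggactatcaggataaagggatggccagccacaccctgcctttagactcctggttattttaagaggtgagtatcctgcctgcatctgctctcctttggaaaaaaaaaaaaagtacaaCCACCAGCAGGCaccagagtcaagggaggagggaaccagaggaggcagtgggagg
Naa80: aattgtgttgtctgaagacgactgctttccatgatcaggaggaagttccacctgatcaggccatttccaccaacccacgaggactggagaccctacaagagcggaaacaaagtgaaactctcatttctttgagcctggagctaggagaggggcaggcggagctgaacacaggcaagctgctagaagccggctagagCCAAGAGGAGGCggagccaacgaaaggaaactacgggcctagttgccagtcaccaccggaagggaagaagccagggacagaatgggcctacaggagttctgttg
Cdhr4: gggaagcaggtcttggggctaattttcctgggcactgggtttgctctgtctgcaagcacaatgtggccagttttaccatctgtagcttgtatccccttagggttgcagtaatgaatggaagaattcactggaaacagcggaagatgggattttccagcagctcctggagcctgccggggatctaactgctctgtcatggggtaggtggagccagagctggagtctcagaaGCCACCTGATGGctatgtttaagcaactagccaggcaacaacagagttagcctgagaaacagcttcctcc

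The next pair is shown because promoters of opposite base composition met at the same bins: the baits that hold them both contacted 4 member bins on chromosome 1, among them chr1:88240792-88245989, where Hjurp scored 2.67 in Sertoli cells (6.67 in pre-granulosa cells) and Mroh2a 11.8 (16.2). CG dinucleotides are in capitals: the promoter of Hjurp, at chr1:88277530-88277829 (minus strand), holds 22, and that of Mroh2a, at chr1:88226770-88227069 (plus), holds 0.
Hjurp: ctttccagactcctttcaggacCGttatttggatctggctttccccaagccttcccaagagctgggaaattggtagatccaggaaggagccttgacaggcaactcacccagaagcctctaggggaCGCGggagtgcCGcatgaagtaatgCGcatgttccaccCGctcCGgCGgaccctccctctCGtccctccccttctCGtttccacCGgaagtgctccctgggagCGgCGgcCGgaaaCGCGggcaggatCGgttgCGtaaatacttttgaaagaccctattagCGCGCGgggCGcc
Mroh2a: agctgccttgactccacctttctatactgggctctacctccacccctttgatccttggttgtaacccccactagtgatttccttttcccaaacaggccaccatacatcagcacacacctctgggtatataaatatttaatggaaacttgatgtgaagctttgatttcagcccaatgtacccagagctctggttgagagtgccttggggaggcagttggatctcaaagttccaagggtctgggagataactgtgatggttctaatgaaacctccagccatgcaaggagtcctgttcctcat

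The last is the promoter of Zfp784 at chr7:5038397-5038696 (minus strand), which lies inside a member bin that carries no bait name. The letters of the GC box, GGGCGG on either strand, are in capitals.
Zfp784: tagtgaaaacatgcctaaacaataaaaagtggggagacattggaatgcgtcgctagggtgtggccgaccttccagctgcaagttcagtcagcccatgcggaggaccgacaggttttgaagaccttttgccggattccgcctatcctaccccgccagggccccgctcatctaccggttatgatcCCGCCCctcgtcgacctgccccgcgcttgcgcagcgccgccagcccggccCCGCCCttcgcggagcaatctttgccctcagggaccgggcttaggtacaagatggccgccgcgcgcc

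Over 4263 baited promoters with a RefSeq entry, the CTCF core was found in 32 of 847 promoters that contacted a member bin (3.78%, 95% Wilson interval 2.69 to 5.28%) and in 77 of 3416 other baited promoters (2.25%, 1.81 to 2.81%). All RefSeq promoters of that length held it in 2.43%. The intervals of the first 2 shares overlapped, which does not show that the shares are alike, and their difference was not tested. The GC box was present in 44.5% and 45.9% of the 2 sets, and the TATA box, TATAAA, in 9.45% and 11.3%, against 35.7% and 13.6% of all RefSeq promoters. The median number of CG dinucleotides was 12 in either set. Over 444 bins with at least 2 such promoters, the number of CG dinucleotides differed between the richest and the poorest by a median of 15.25. The range was not taken for other sets of promoters, so it is not read as a trait of the bins. The bins themselves could not be read, since no genome sequence was used here.

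Most bins without a bait name had a single bait: 12106 of them, against 2855 with 2 baits and 889 with 3. Among the members, 311 bins had 4 baits, 144 had 5, 35 had 6, 20 had 7, 5 had 8, 1 had 9, 1 had 10 and 2 had 11. Member bins were a median of 5297 bp long (5001 to 7475 bp). In 342 of them the baits formed 4 or more groups when touching baits were joined, in 147 they formed 3 groups and in 30 they formed 2, so the last 2 sets have fewer than 4 separate promoter regions.

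**Figure D1:**
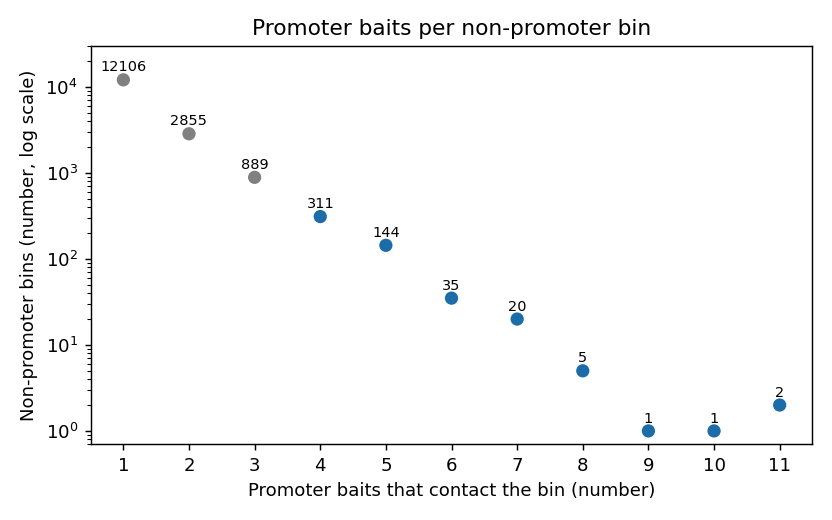
Number of bins without a bait name (vertical axis, log scale) by the number of promoter baits that contact them (horizontal axis). Blue points are the member bins with 4 or more baits and grey points are bins with 1 to 3; the count falls from 12106 bins with 1 bait to 311 with 4 and 2 with 11.

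A window of 100 kb on each side of a member bin held a median of 11 promoter bins, against 8 for bins with 3 baits, 5 for bins with 1 to 3 and 4 for bins with 1. The count includes the contacting baits themselves, so it is partly set by the rule that chose the bins. How much of the rise this makes was not tested. Chromosome 3 had the highest share of member bins (5.73%) and chromosome 4 the lowest (1.38%), while chromosome 7 held the most, 124. Of the members, 366 (70.5%) overlapped the body of a protein-coding RefSeq gene without its start, and 141 (27.2%) overlapped none. Bins with 1 to 3 baits gave 67.4% and 31.6%.

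The name "non-promoter" holds only as the absence of a bait name. A protein-coding RefSeq start lay in 12 member bins (2.31%, 1.33 to 4.00%), against 1.07% of bins with 1 to 3 baits. These were the starts of Agap3, Anapc15 (a subunit of the anaphase-promoting complex), Art4, Bax (an effector of apoptosis), Edf1, Folr2 (a folate receptor), Hdhd3, Lcn15, Lrrc8e, Mst1r (a receptor tyrosine kinase), Tubb3 (a neuronal tubulin) and Zfp784. For 6 of them a bait of the gene stood elsewhere in the table. A further 3 bins held a miRNA hairpin, those of Mir130a, Mir3087 and Mir8093.

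Promoters stood on both sides of the bin in 344 members (66.3%). The share rose with the number of baits, on which the rule selects. It was 36.4% of bins with 2 baits, 56.1% with 3, 62.4% with 4 and 72.9% with 5. It is therefore not read as a trait of the members. With contacts of at least 50 kb alone, 110 bins had 4 or more baits and 29.1% of them stood between their promoters. Contacts of member bins spanned a median of 53.1 kb (5% at 10.7 kb, 95% at 187 kb, longest 437 kb), against 43.5 kb for bins with 1 to 3 baits. The bait with the strongest score was the nearest bait in 182 of the 519 bins (35.1%).

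Of the 2395 contacts, 2037 (85.1%, 95% Wilson interval 83.6 to 86.4%) reached a score of 5 in Sertoli cells. The pre-granulosa score reached 5 for 1214 (50.7%, 48.7 to 52.7%). A contact is called here at a score of 5 or more. Over all 22878 contacts of bins without a bait name, the Sertoli share was 78.1% and the pre-granulosa share 48.3%. Both cell types called 856 member contacts (35.7%, against 26.4% over all), Sertoli cells alone 1181 (49.3%, against 51.7%) and pre-granulosa cells alone 358 (14.9%, against 21.9%). Since entry to the table and membership both rest on these calls, nothing is read from the comparison. Sertoli calls outnumber pre-granulosa calls in the whole table, and the number of pooled libraries and the cell type cannot be told apart. The intervals cover counting error only, and neighbouring bins and baits share read pairs.

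The median Sertoli score of the members' contacts was 6.95 (up to 49.3) and the median pre-granulosa score 5.04 (up to 34.0). Just outside the limit, the contacts of bins with 3 baits had medians of 6.50 and 4.72, with a Sertoli share of 84.1%, a pre-granulosa share of 47.6% and a joint share of 31.6%. Just inside it, bins with 4 baits had medians of 6.73 and 4.98, with 84.5%, 49.6% and 34.1%. The limit of 4 therefore cuts through a gradual series of values.

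Joint calls thinned with distance. In the members, 52.2% of contacts under 25 kb were called in both cell types, 34.8% at 25 to 50 kb, 29.4% at 50 to 100 kb, 26.5% at 100 to 200 kb and 22.5% from 200 kb. In bins with 1 to 3 baits the same ranges gave 35.1%, 23.3%, 19.5%, 17.7% and 19.2%. The pre-granulosa share of the members fell from 64.6% under 25 kb to 40.04% at 100 to 200 kb and was 47.2% from 200 kb, while the Sertoli share stayed between 75.3% and 87.7% in every range. Bins with 1 to 3 baits took a like course, with pre-granulosa shares of 58.9%, 40.2% and 45.0% in the same 3 ranges and Sertoli shares of 74.2% to 78.9%.

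Counted by bin, 381 members (73.4%) had more Sertoli than pre-granulosa calls, 60 (11.6%) had fewer and 78 (15.0%) had equal numbers. Neither these counts nor those that follow are given here for bins with fewer baits. The contacts of bins with 3 baits leaned the same way, with a Sertoli share of 84.1% against a pre-granulosa share of 47.6%. The lean by bin is therefore not read as a trait of the members. Every contact was called in Sertoli cells alone in 37 bins, in pre-granulosa cells alone in 1 bin and in both in 7 bins. Every Sertoli score was the higher of the pair in 142 bins, and every pre-granulosa score in 7. Contacts specific to each cell type met in the same bin in 239 cases (46.1%). Taken alone, the Sertoli calls would make 338 of the bins members, the pre-granulosa calls 83, and both 48. When the same number of highest-scoring interactions was called in each cell type (28985, which puts the Sertoli threshold at 6.01), 269 bins had more Sertoli calls, 133 fewer and 117 equal numbers, and 160 and 83 bins kept 4 or more calls.

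The 10 bins with the most baits had 10 to 20 promoter bins within 100 kb, a count that includes contacting baits. Where a pair of scores is given from here on, the Sertoli score comes first. The bin chr7:141357311-141363151 (build mm10), in the body of Eps8l2, a gene of actin-linked signalling, had 11 baits on 7 groups, 9 on one side and 2 on the other. Sertoli cells called all 11 contacts and pre-granulosa cells 2. In the table with single-fragment baits the position had 9 baits, with 6 Sertoli and 4 pre-granulosa calls, a smaller lean. In the first table the Sertoli scores ran from 5.48 through a median of 7.47 to 12.7, and the pre-granulosa scores from 0 through 2.70 to 15.3. The pair called in both were Cdhr5, a cadherin of the brush border, at 12.7 and 15.3 over 85.3 kb, and Deaf1, a transcription factor, at 10.02 and 6.30 over 48.2 kb. The promoter of Irf7, a regulator of interferon genes, scored 5.59 against 1.43 at 96.6 kb. The bait of Cd151, a tetraspanin of the cell surface, scored 7.47 against 0.343 at 107 kb on the other side.

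The bin chr7:141394564-141399992, in the body of Taldo1, an enzyme of the pentose phosphate pathway, had 9 baits. It shared the baits of Phrf1, Irf7, Deaf1, Eps8l2, Slc25a22 and Cd151 with the Eps8l2 bin, so these contacts are not independent. Sertoli cells called 8 and pre-granulosa cells 2 (6 and 1 over 7 single-fragment baits). The highest Sertoli score, 13.0 against 3.21, came from Slc25a22, a mitochondrial glutamate carrier, and the bait that holds Rplp2, a ribosomal protein gene, and Pidd1 was called in both at 9.35 and 5.58. The 8 bins of this neighbourhood had 46 Sertoli calls and 11 pre-granulosa calls over 49 contacts.

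Another bin with 11 baits, chr7:127098760-127103838, overlapped no protein-coding gene and lay 3.93 kb from Qprt, an enzyme of NAD synthesis. All its baits were on 1 side, between 10.4 and 302 kb away. Sertoli cells called 10 and pre-granulosa cells 4 (5 and 2 over 6 single-fragment baits). The farthest, the bait of Aldoa, a glycolytic aldolase whose CTCF core is printed above, scored 9.02 and 1.84. Cdipt, which makes phosphatidylinositol, went the other way at 5.63 and 11.3, and Zg16, a gene of zymogen granules, was called in pre-granulosa cells alone (1.40 and 5.19). Sez6l2 and Asphd1, on 1 bait, gave the highest Sertoli score of the bin, 12.1 against 7.23.

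On chromosome 9 the bin chr9:107615743-107620913, in the body of Gnai2, an inhibitory G protein subunit, was called evenly: 7 of its 10 contacts in each cell type, 4 of them in both. With single-fragment baits it had 9 baits, with 7 Sertoli and 4 pre-granulosa calls. The nearest bait, that of Sema3b, a secreted guidance factor, scored 19.0 and 20.3. The hyaluronidase genes Hyal1, Hyal2 and Hyal3 stood on the same side, and the bait of Hyal2 scored 11.3 and 6.03 while that of Hyal1, which touches the bait of Hyal3, scored 1.32 and 5.28. On the far side Slc38a3, a glutamine transporter, had 1 bait called in pre-granulosa cells alone (1.87 and 5.06) and the touching bait called in Sertoli cells alone (9.14 and 3.92).

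The neighbouring bin chr9:107637162-107642208 had 8 baits, with 5 Sertoli and 6 pre-granulosa calls, and with single-fragment baits 6 and 4 over 8 baits, so the direction turned. Sema3b again scored alike, 16.6 and 17.1, at 32.1 kb. Its farthest bait was Cdhr4, a cadherin-related gene whose promoter is printed above, 355 kb away, at 5.57 and 0. These bins belong to the set of linked bins with the most members: 20 bins, 26 baits and 103 contacts over 529 kb, with 85 Sertoli and 58 pre-granulosa calls.

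The other 5 bins among the 10 with most baits each had more Sertoli calls, which held for 3 of them with single-fragment baits. In the body of Agap3, chr5:24465361-24470484 had 7 Sertoli and 3 pre-granulosa calls over 7 baits (6 and 0 over 6 single-fragment baits). Its contacts to Abcb8, a mitochondrial transporter with 3 baits, had Sertoli scores of 13.7 to 28.5 and pre-granulosa scores of 0.364 to 6.54, and the bait of Fastk and Tmub1 scored 20.7 and 16.8. All 7 baits lay on 1 side, and Cdk5, a kinase of neurons, shared a bait with the anion exchanger Slc4a2 at 11.0 and 4.71.

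In the body of Sdhc, a subunit of succinate dehydrogenase, chr1:171133386-171139549 had 8 Sertoli and 3 pre-granulosa calls over 8 baits. With single-fragment baits it had 3 baits, too few for a member, with 2 calls in each cell type. The bait of Tomm40l, of the mitochondrial import pore, and Apoa2, an apolipoprotein, scored 22.2 and 17.6 at 86.5 kb, and the nearest bait, of Cfap126, a gene of motile cilia, scored 11.5 and 12.2. In the body of Zbtb46, a zinc finger factor of dendritic cells, chr2:181390990-181396007 also had 8 and 3 calls (7 and 1 over 7 single-fragment baits), with all 8 baits on 1 side up to 207 kb away. Its strongest contact, 22.9 and 13.9, was with the bait of Uckl1, of the uridine kinase family, at 191 kb. The bait that touches it, of Zfp512b and the splicing factor Prpf6, scored 13.47 and 1.09.

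In the body of Alad, an enzyme of haem synthesis, chr4:62507474-62512728 had 8 and 3 calls, but 6 and 7 over 9 single-fragment baits, so the direction turned. Wdr31 scored 20.3 and 6.27, and Slc31a1, the copper importer, 5.10 and 2.81. In the body of Slc34a3, a renal phosphate transporter, chr2:25225800-25232003 was nearly even, with 7 and 6 calls (10 and 7 over 11 single-fragment baits), and the bait of Anapc2, a subunit of the anaphase-promoting complex, scored 15.4 and 12.8. Across these 10 bins pre-granulosa calls were the fewest at the Eps8l2 and Taldo1 bins, 2 each.

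Of the 5 bins with the largest excess of contacts specific to Sertoli cells, 2 had fewer baits. At chr3:90377927-90383437, which overlaps no protein-coding gene and lies 1.79 kb from Slc27a3, of the fatty acid transport family, all 6 contacts were called in Sertoli cells alone. The Sertoli scores ran from 5.69 to 10.8 and the pre-granulosa scores from 2.32 to 3.23, on either side of 5 as the choice of the bin requires. The baits were those of Rab13, a small GTPase of tight junctions (10.1 and 2.32 at 161 kb), Creb3l4, Dennd4b with 2 touching baits, Gatad2b, a subunit of the NuRD complex (5.97 and 3.23), and Slc27a3. In the table with single-fragment baits the same bin was listed with 5 baits, all 5 of them Sertoli calls and 0 pre-granulosa calls.

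The other, 1 of 12 bins tied at an excess of 5 and taken for its summed score difference, was chr1:88245990-88251236, in the body of Mroh2a, where 5 of 5 contacts had a pre-granulosa score of exactly 0 and a Sertoli score of 6.82 to 31.7. The baits were those of Ugt1a1, the bilirubin-conjugating enzyme, Mroh2a with 2 baits, another bait of Hjurp than the one whose promoter is printed (Hjurp is the chaperone of the centromeric histone), and Trpm8, the cold-sensing channel. The bin at chr1:88230386-88235460 was likewise at 0 in 5 of 5, with a Sertoli median of 15.8. Bins beside them did not share this: chr1:88235461-88240791 had medians of 18.5 and 17.0 and chr1:88240792-88245989 of 13.9 and 14.8. In the table with single-fragment baits, no bin overlapped chr1:88245990-88251236 by at least 50% of its length. A bin there that overlaps it by 1906 bp, and lies for the most part in the neighbour at chr1:88240792-88245989, was at 0 in Sertoli cells in 6 of 6 contacts and had a pre-granulosa median of 9.80.

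In these bins all baits stood at 0 together. These 2 bins hold 10 of the 51 member contacts listed at 0 in pre-granulosa cells, and 8 contacts were at 0 in Sertoli cells. Whether a 0 stands for no contact or for no usable value was not tested. The whole neighbourhood of 11 bins and 7 baits had 45 Sertoli and 44 pre-granulosa calls over 56 contacts. Without these 2 bins, whose 10 contacts are all Sertoli calls, the counts were 35 Sertoli and 44 pre-granulosa calls over 46 contacts, so the lean turned towards pre-granulosa cells.

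**Figure D2:**
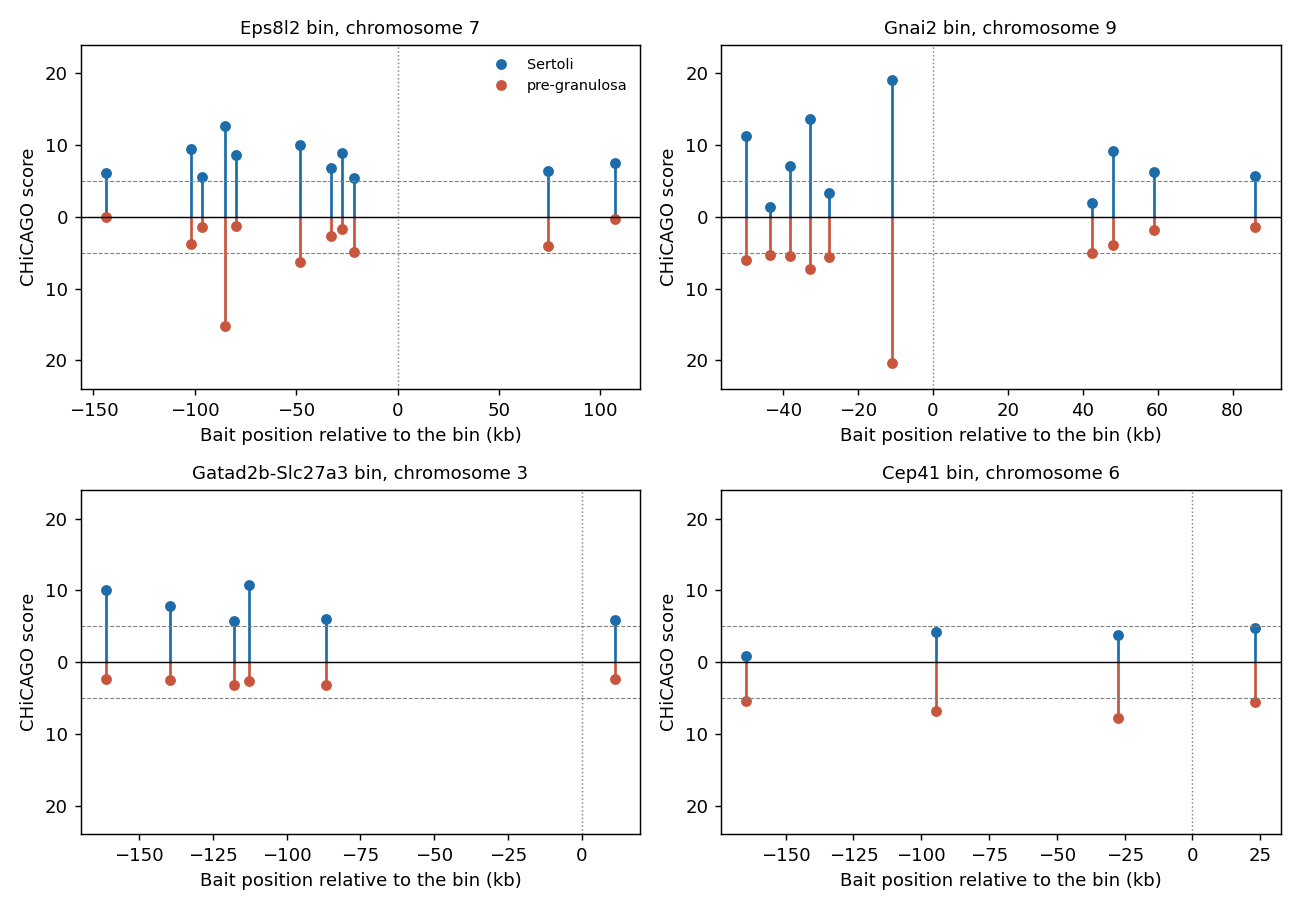
CHiCAGO scores of every contact of 4 member bins, by the position of the bait relative to the bin (horizontal axis, kb; the dotted line marks the bin). Blue stems upward are Sertoli scores, red stems downward are pre-granulosa scores, and dashed lines mark a score of 5. All 11 Sertoli stems pass 5 at the Eps8l2 bin and 2 pre-granulosa stems do, 7 of each pass at the Gnai2 bin, all 6 Sertoli stems and no pre-granulosa stem at the bin between Gatad2b and Slc27a3, and the reverse for the 4 contacts of the Cep41 bin.

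Bins that leaned to pre-granulosa cells were fewer. The bin whose contacts were all called in pre-granulosa cells alone was chr6:30704514-30710679, in the body of Cep41, a gene of primary cilia. Its 4 baits include those of Mest, an imprinted gene (4.74 and 5.56), Cep41 itself (3.71 and 7.76) and the carboxypeptidase gene Cpa5 (4.18 and 6.77). These Sertoli scores ran from 3.71 to 4.74 and the pre-granulosa scores from 5.56 to 7.76, on either side of the threshold of 5 by which the bin was picked. With single-fragment baits the bin had 2 baits, both called in pre-granulosa cells alone.

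A second lay at chr7:142559196-142564722, which overlaps no protein-coding gene and is 0.598 kb from the non-coding gene Nctc1, between the fast-muscle troponin genes and Igf2, an imprinted fetal growth factor. Of 5 contacts, 4 were called in pre-granulosa cells alone: Igf2 (4.68 and 7.51, at 98.0 kb), the bait of Prr33 and Tnnt3 (2.14 and 7.64), 1 bait of Tnni2 (1.43 and 5.86) and Gm49394 (1.62 and 5.07). The touching bait of Tnni2 and Syt8 was called in Sertoli cells alone (5.06 and 3.07). With single-fragment baits this bin had 2 baits, with 1 call in each cell type, so the lean was absent there.

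This bin and its neighbours had 26 pre-granulosa and 25 Sertoli calls over 37 contacts and 8 bins. Igf2 itself met 5 of these bins, with 4 Sertoli and 3 pre-granulosa calls over 6 contacts. The bin in Ins2, the insulin gene beside it, had 5 Sertoli and 2 pre-granulosa calls. Of the 32 neighbourhoods with at least 20 contacts, 31 had more Sertoli calls and this 1 had fewer. Without the 2 bins near Mroh2a listed at 0, a choice made after the data were seen, the neighbourhood on chromosome 1 joined it, which left 30 with more and 2 with fewer. At equal numbers of calls 22 of the 32 had more Sertoli calls, 9 fewer and 1 the same number, with or without those bins.

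The other 3 of the 5 bins with the largest excess of pre-granulosa calls were as follows. The 5th bin had an excess of 3, at which 4 bins were tied, and the summed score difference decided which of these were named. At chr7:12945715-12950790, pre-granulosa cells called all 5 contacts (5.55 to 8.42) and Sertoli cells 1, that of Zfp324 (7.93 and 8.37). The bait of Chmp2a, of the ESCRT machinery, and Ube2m, which conjugates NEDD8, scored 2.60 and 8.42. With single-fragment baits the bin had 3 baits, all called in pre-granulosa cells alone.

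At chr7:5034243-5040563, the bin that holds the Zfp784 start printed above, pre-granulosa cells called 4 of 4 contacts and Sertoli cells 1. The bait of Fiz1 and Zfp524 scored 5.22 and 6.58, and Zfp580 4.89 and 8.00. With single-fragment baits it had 2 baits and 1 call in each cell type. At chr1:88296736-88302384, 4.35 kb from Trpm8, the 4 contacts had Sertoli scores of 1.39 to 6.10 and pre-granulosa scores of 5.70 to 7.82, and all 4 single-fragment contacts there were called in pre-granulosa cells alone.

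At the other end of the scale, 7 bins had every contact called in both cell types. The highest pre-granulosa median of any member, 17.8, with a Sertoli median of 16.7, was at chr4:43012330-43017621, contacted by the baits of Vcp, an ATPase of protein quality control, Stoml2, of the inner mitochondrial membrane, Pigo, of GPI-anchor synthesis, and Fam214b. The 4 baits of this bin form only 2 groups of touching baits and lie 11.5 to 22.5 kb away, a range where joint calls were most common. The highest Sertoli median, 20.5 against 4.10, was in the body of Ctnnd1, which encodes the p120 catenin of cell junctions, at chr2:84615764-84620983. It had 5 Sertoli and 2 pre-granulosa calls over 5 baits.

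The baits that contacted the bins were those of 917 of 5075 gene symbols (18.1%). Of these, 436 met 1 member bin and 140 met 5 or more. Cfap126 met the most, 18 bins, with 41 Sertoli and 26 pre-granulosa calls over 43 contacts. Apoa2 and Tomm40l, which share a bait, met 16, and Asphd1, Bnipl and Sez6l2 met 13 each. Among the genes with 10 bins, Npdc1 had 10 Sertoli calls and 1 pre-granulosa call, whereas Med19, a Mediator subunit, had 10 of each.

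Few genes of the sex-determination programmes had a contact that could count here. Of the 22 genes on the Sertoli list, 4 had a contact with a bin without a bait name and 1, Ptgds, met a member bin. Of the 21 on the pre-granulosa list 4 had a contact and 0 met a member bin, and of 10 on the list shared by both lineages 3 had a contact and 0 met one. Taken as 3 counts of the total, a count of 0 in 4 or 0 in 3 allows shares of up to 75% and 100% (upper Wilson limits 49.0% and 56.2%), so nothing can be said of the last 2 lists. Of 6 genes of other gonadal cell types with a contact, Nanos3, a germ cell gene, met 1 bin, at 2.67 and 7.33.

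Ptgds encodes the prostaglandin D2 synthase of Sertoli cells, an amplifier of the testis programme. Its bait met 3 bins among the lipocalin genes on chromosome 2. At chr2:25449615-25454798 it scored 5.55 and 2.82, at chr2:25475659-25480837 8.13 and 5.30, and at chr2:25486252-25491602 7.74 and 8.05. Sertoli cells called it at 3 bins and pre-granulosa cells at 2, with the higher pre-granulosa score at the third.

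The bins of Ptgds served its neighbours as well. At chr2:25475659-25480837 the lipocalin gene Lcn12 scored 12.4 and 5.67, and Npdc1 7.67 and 2.12. At chr2:25486252-25491602, in the body of Lcn12, Fut7, a fucosyltransferase of leukocytes, scored 13.3 and 5.16 and Abca2, a lipid transporter, 5.57 and 0.939. Sertoli cells called 3 of 4, 5 of 5 and 6 of 6 contacts of the 3 bins, and pre-granulosa cells 1, 3 and 2. With single-fragment baits the calls were 3 and 1, 4 and 2, and 8 and 2. The neighbourhood of 19 bins that holds them had 89 Sertoli and 41 pre-granulosa calls over 98 contacts.

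Over all baited genes 18.1% met a member bin, and the shares of wider families were set beside this without a test. Of 17 cytosolic ribosomal protein genes, 7 met a member bin (41.2%, 21.6 to 64.0%), among them Rpl13a, Rpl18, Rpl28, Rpl29 and Rplp2, and of 100 Zfp zinc finger genes 24 did (24.0%, 16.7 to 33.2%). Of 24 growth factor ligand and receptor genes 4 did (16.7%, 6.68 to 35.9%): Fgf21, Gdf5, Igf2 and Pdgfa. Of 43 genes of developmental transcription factor families such as Hox, Sox, Gata and Fox, 0 did, which allows a share of up to 6.98% as 3 counts of the total (upper Wilson limit 8.20%). Of 340 genes of tandem families such as olfactory receptors and keratins 8 did (2.35%, 1.20 to 4.57%), and 1 of these, Krtcap2, matches the name pattern without being a keratin.

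Promoter density differed between the families as well. The median number of promoter bins within 100 kb of the baits was 1.5 for the growth factor genes, 3 for the developmental factors and 4.5 over all genes, but 7 for the tandem families and 6 for both the ribosomal and the Zfp genes. Its part in the shares was not tested. Rpl13a met 6 bins, with a Sertoli median of 10.6 and a pre-granulosa median of 8.41. Zfp646 and Zfp668, on 1 bait, met 10 bins with 10 Sertoli and 8 pre-granulosa calls.

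**Figure D3:**
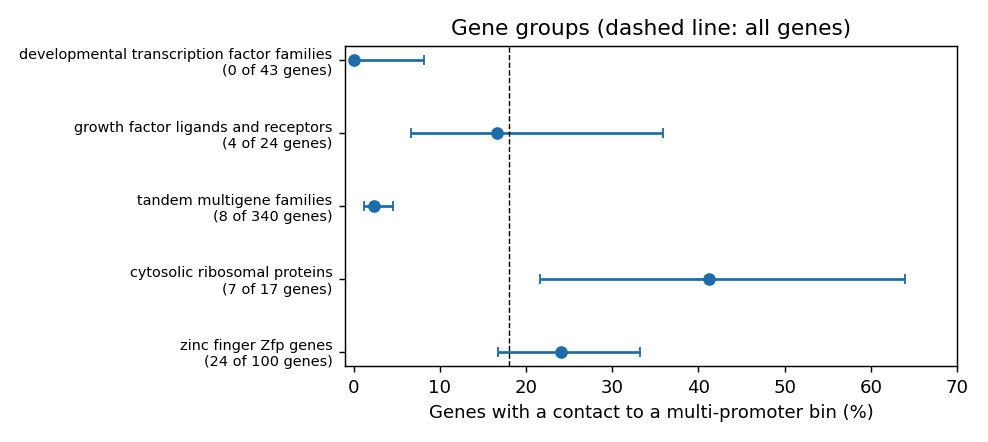
Share of the baited genes of each family with a contact to a member bin (horizontal axis, percent); points are shares, bars 95% Wilson intervals and the dashed line the 18.1% over all baited genes. Ribosomal protein genes lie at 41.2% and developmental transcription factor genes at 0 of 43.

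Promoters that met at a bin were often listed as contacting each other, listings that the rule did not count although they come from the same contrast. Of bait pairs 50 to 100 kb apart that shared a member bin, 79.6% (76.5 to 82.5%) were listed as an interaction, against 29.8% (28.1 to 31.5%) of pairs that shared no bin. At 200 to 500 kb the shares were 37.9% and 1.88%, while under 25 kb they were 63.8% and 61.0%. Pairs that shared only bins with 2 or 3 baits gave 74.0% at 50 to 100 kb and 43.6% at 200 to 500 kb, with intervals that overlapped those of the member bins. Over all pairs under 500 kb the intervals did not overlap: 70.2% (68.4 to 71.9%) for member bins and 66.3% (64.3 to 68.1%) for bins with 2 or 3 baits. These differences were not tested. The listing comes from the same libraries, the same bait enters many pairs, and baits of member bins had a median of 5 contacts with bins without a bait name against 2 for other baits.

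**Figure D4:**
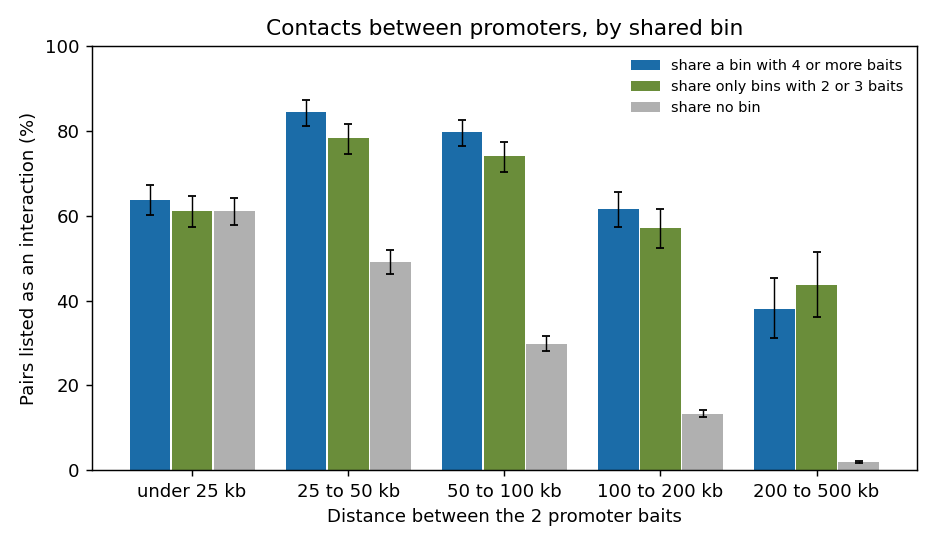
Share of bait pairs listed as an interaction (vertical axis, percent) by the distance between the baits (horizontal axis), for pairs sharing a member bin (blue), pairs sharing only bins with 2 or 3 baits (green) and pairs sharing no bin (grey), with 95% Wilson intervals. The 3 shares are alike under 25 kb (63.8%, 61.0% and 61.0%) and part at 200 to 500 kb (37.9%, 43.6% and 1.88%).

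Member bins were themselves clustered. A second member bin touched 188 of them (36.2%), which leaves 408 separate runs, and linking bins that share a bait gave 150 neighbourhoods, 60 of them of 1 bin. The 12 neighbourhoods with 10 or more bins held 173 bins. The 1 on chromosome 3 around Bnipl, Prune1 and Psmd4 had 18 bins with 80 Sertoli and 31 pre-granulosa calls over 85 contacts, and the 1 on chromosome 1 around Cfap126 and Apoa2 had 19 bins with 88 and 61 over 98. The 519 bins therefore do not stand for 519 separate observations.

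The same positions were looked up in the table with single-fragment baits, made from the same libraries. A bin that overlapped a member by at least 50% of its length was listed with 4 or more baits for 302 members (58.2%, 53.9 to 62.4%), with 3 for 91, with 2 for 75 and with 1 for 31, and 20 had none. Among the other 15850 bins, 428 (2.70%) overlapped a bin with 4 or more baits there. Of 370 members with more Sertoli calls and a bin in that table, 318 had more Sertoli calls there too, 17 fewer and 35 equal numbers. Of 55 members with fewer Sertoli calls, 22 had fewer there, 12 had more and 21 had equal numbers.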

How the data were processed

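The deposited table with extended baits gives a CHiCAGO score per interaction and cell type and a signed distance between midpoints in bp, per the file headers. Libraries were cut with DpnII, per the labels' protocols, and the build is mm10, per the submitters' processing notes. Versions, read filters and how libraries were combined are not given in the sources used here. The number of interactions whose higher score was under 5 was 0 of 51777. The members, gene lists and name patterns were chosen with earlier results of these data known. The promoter motifs, the pairs sharing bins with 2 or 3 baits, the neighbourhood counts and the counts at equal numbers of calls by bin were chosen after the data were seen.

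Bins were selected and counted with pandas 2.3.3 in Python 3.11.15. Shares have 95% Wilson intervals. Of 5075 symbols, 5015 matched RefSeq (GRCm38.p6); the gene table is not complete. Named bins are the 10 with the most baits (ties by the summed higher score), the 5 with the largest excess of contacts specific to each cell type (ties by the summed score difference), and those contacted by a gene of the Sertoli, pre-granulosa or shared list; genes and bins at the extremes of a count were named after their values were seen. The lists came from textbook markers. Code was tested on simulated data. A motif search inside the bins was planned and not run, since it needs a genome. Some genes are not reported here.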

Additional observations from a re-analysis of the deposited data

How the results depend on the processing

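Membership depends on its limits. The number of bins, 519, became 1408 with 3 or more baits, 208 with 5 or more, 342 when 4 groups of touching baits were required, 122 and 19 at score thresholds of 7 and 10, 110 over distances from 50 kb, 923 with single-fragment baits and 316 at equal numbers of calls; 4 different gene symbols gave a count within 1.5 times. The share called in Sertoli cells was 89.2% and 92.7% at thresholds of 7 and 10, 87.2% from 50 kb and 76.9% at equal numbers of calls. The share called in pre-granulosa cells was 46.0% and 59.8% at 7 and 10, 42.9% from 50 kb, 43.6% with single-fragment baits and 62.4% at equal numbers. The share called in both was 33.6% with 3 or more baits, 52.4% at 10, 30.1% from 50 kb, 29.0% with single-fragment baits and 39.4% at equal numbers. The median distance was 49.1 kb with 3 or more baits, 54.9 kb with 4 groups, 48.3 and 36.9 kb at 7 and 10, 109 kb from 50 kb and 41.2 kb with single-fragment baits. The share of bins between promoters was 59.9% with 3 or more baits, 72.1% with 5 or more, 73.1% with 4 groups, 57.9% at 10 and 29.1% from 50 kb. The alternatives change which contacts count by construction; no other cause was tested. In each of them the Sertoli share stayed above the pre-granulosa share. Each alternative selects its bins by calls of the same scores, so nothing is read from this order.

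No paired analysis was possible because each cell type has 1 score column for all its libraries; for the same reason no library was left out. Depth is unknown, and its effect on the values could not be tested.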

Other observations

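Outside chromosomes 1 to 9, baits of the X chromosome had contacts with 376 bins without a bait name, and 1 of these had 4 baits, the most of any X bin. Contacts between chromosomes reached 253 such bins, and 0 of them had 2 or more baits.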
